A study of Rattus norvegicus with 31 samples.

Results

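The fat around the aorta, perivascular adipose tissue or PVAT, made up 22 of the 31 bulk RNA libraries of a rat study, and it was divided here by its level of Fasn, the gene of fatty acid synthase. The Fasn-high libraries were chosen by a Fasn level above the median of the 22 and the rest were called Fasn-low, which gave 11 libraries of each kind. Levels are in CPM, the count of a gene scaled to the total of its library. Because the measured Fasn values chose the libraries, the difference between Fasn-high and Fasn-low PVAT is described and not tested. Tests are kept to BAT and to the labelled contrasts of surgery and site.

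The tissue came from male Sprague-Dawley rats aged 10 to 15 weeks, kept at 22 °C on a chow diet, with a labelled time point of 15 weeks. In coarcted rats a silk thread was tied around the mid-thoracic aorta, and by radiotelemetry the systolic pressure differed by about 20 mmHg across it 4 weeks later. Sham rats had the same operation with the thread left loose. Coarcted rats gave 6 libraries from above the ligature and 6 from below it, and sham rats gave 5 from above and 5 from below. Brown adipose tissue (BAT) gave 5 libraries of coarcted and 4 of sham rats, which played no part in the division. Sample titles carry a number that recurs across sites. The labels do not say whether a number stands for 1 rat, or whether the libraries of a group are separate animals, so a p-value here speaks for the spread among these libraries, which may be technical. Ucp1, the uncoupling protein that defines brown adipocytes, was at 1051 to 2504 CPM in all 22 PVAT libraries and at 830 to 1637 CPM in BAT, so this marker was present in both states.

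Fat cells make fatty acids from glucose when nutrients and insulin are plentiful. Glucose is broken down to pyruvate, pyruvate enters the mitochondrion and leaves it again as citrate, and citrate is split in the cytosol to acetyl-CoA, which acetyl-CoA carboxylase and fatty acid synthase turn into palmitate. The genes of this route are switched on together by the transcription factors SREBP-1c and ChREBP, and brown fat is known for a high and variable rate of this synthesis.

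Fasn ranged over 13.1-fold in PVAT. It had 17826, 22781 and 41584 CPM as the lowest, median and highest of the Fasn-high libraries, against 3180, 4984 and 15555 CPM in the Fasn-low libraries. The median that divided them was 16690 CPM, so the members nearest to it were at 17826 CPM inside and 15555 CPM outside. A single gene thus took 1.78 to 4.16% of all counts in Fasn-high libraries and 0.318 to 1.56% in Fasn-low libraries.

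The state cut across the labelled groups. Fasn-high libraries numbered 3 of 6 in coarct above, 3 of 6 in coarct below, 2 of 5 in sham above and 3 of 5 in sham below. Fasn averaged 14718 ± 12235 CPM in coarct above (SD, n = 6) and 17060 ± 14748 CPM in coarct below (n = 6). It averaged 11274 ± 6922 CPM in sham above (n = 5) and 20761 ± 10789 CPM in sham below (n = 5). The spread within each group was large, with SDs close to the mean in both coarct groups and smaller against the mean in both sham groups, and the ranges of all 4 groups overlapped. By title number, the state was mostly shared between sites. Of 11 numbers, 5 were Fasn-high at both sites, 5 were Fasn-low at both sites, and 1 was split.

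The split number was sham 24, with 22781 CPM below the ligature and 6202 CPM above it. The highest number was coarct 30, at 35255 CPM above and 41584 CPM below, and the lowest was sham 26, at 3180 CPM above and 4984 CPM below. Fasn was higher below than above in 11 of 11 numbers, by 1.01 to 3.67 times with a median of 1.32. Across the 11 numbers, the rank correlation of the level above with the level below was 0.85, given as a description. The 22 libraries are therefore not independent of each other: libraries with the same number mostly share the state.

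**Figure D1:**
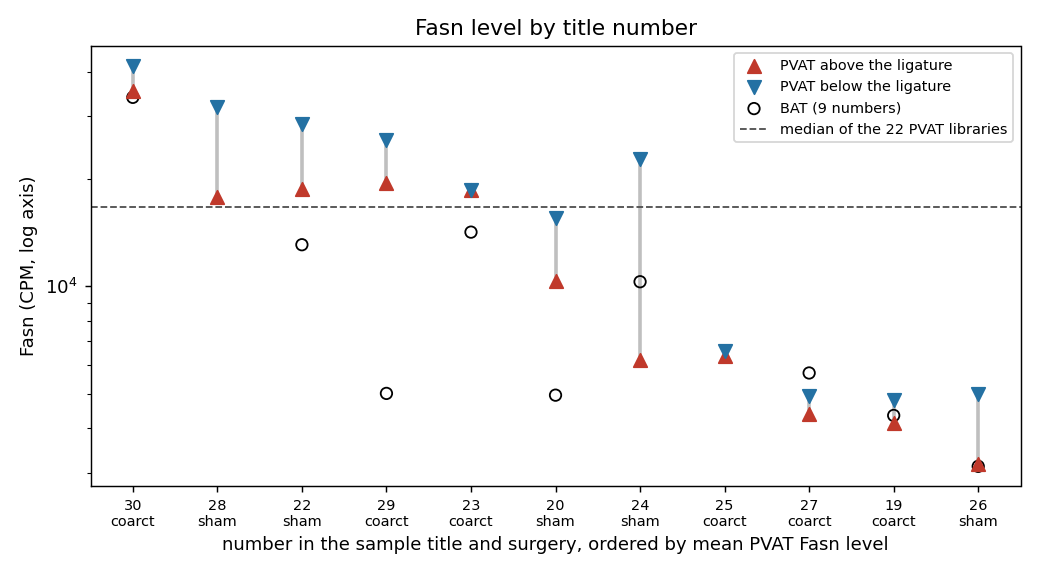
Fasn level in CPM (log axis) of each library, by the number in its title and its surgery, with numbers ordered by their mean PVAT level; triangles are PVAT above and below the ligature, circles BAT, and the dashed line is the dividing median of 16690 CPM. Both PVAT libraries lie on the same side of the line for 10 of the 11 numbers, and only those of sham 24 lie on either side.

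Library totals ran from 15713160 to 23874564 counts in PVAT and did not follow Fasn (rank correlation 0.08). Summed transcripts of contaminating tissue did not follow it closely either. Summed cardiac muscle transcripts ran from 2.81 to 2255 CPM in Fasn-high and from 1.35 to 3431 CPM in Fasn-low libraries (rank correlation -0.21), and summed sympathetic neuron transcripts from 19.1 to 711 CPM and from 18.5 to 1120 CPM (0.14). Gene by gene, 17 of 18 sympathetic neuron genes had a rank correlation with Fasn above 0 (median 0.31). In cardiac muscle, 12 of 13 genes had one below 0 (median -0.38), and the median of all genes was -0.15. Of 5 libraries rich in neuron transcripts, 4 were Fasn-high and 1 was Fasn-low. Mitochondrial 12S rRNA was over 500 CPM in 7 of 11 Fasn-high and 5 of 11 Fasn-low libraries. The trend of a library's levels with gene length had a rank correlation of 0.03 with Fasn. Transcripts of the mitochondrial genome took a large share of all counts, with medians of 371736 CPM in Fasn-high and 405606 CPM in Fasn-low libraries (rank correlation -0.49), and the part of these shifts in the results was not tested except by the alternative scalings given below.

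For each of 14556 genes with enough counts, Spearman's rho of its CPM with that of Fasn was taken over the 22 libraries, and a gene was counted as going along with the state at a rho of at least 0.7 or at most -0.7. No p-value is attached to these values. Among all genes, 265 had a rho of at least 0.7 (1.82%) and 404 had one of at most -0.7 (2.78%), and 35.3% had a rho above 0. The balance of the directions depended on scaling: with TMM factors in place of column totals the counts were 517 and 243, so that 68.03% of the counted genes were positive, against 39.6% by column totals. The median log2 difference of all genes, Fasn-high minus Fasn-low, was -0.06 by column totals and -0.01 by TMM. Of the genes counted by column totals, 261 of the 265 positive and 218 of the 404 negative ones were also counted with TMM factors.

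The Fasn level stood for a wider lipogenic state. Of the 19 other lipogenic enzymes tested, 13 had a rho of at least 0.7 against 1.82% of all genes, none had one of at most -0.7, and their median was 0.82. Acly, the ATP citrate lyase that makes cytosolic acetyl-CoA, had 2096, 4060 and 6254 CPM as the lowest, median and highest value in Fasn-high libraries, against 431, 790 and 3237 CPM in Fasn-low libraries (rho 0.88). Its groups overlapped, with 6 of 11 Fasn-high libraries above every Fasn-low one. Scd, the desaturase that makes oleate, had medians of 5893 CPM in Fasn-high and 997 CPM in Fasn-low libraries (rho 0.85). Acaca, the cytosolic acetyl-CoA carboxylase, had medians of 1064 CPM and 365 CPM in the same order (rho 0.84), and Me1, the malic enzyme that supplies NADPH, had 1134 CPM and 344 CPM (rho 0.86). Slc25a1, the mitochondrial citrate carrier, had medians of 343 CPM in Fasn-high and 91.0 CPM in Fasn-low libraries (rho 0.89). The desaturases of polyunsaturated fatty acids did not share this: rho was -0.32 for Fads1 and -0.29 for Fads2. Elovl6, an elongase of palmitate, was low, with medians of 1.01 CPM in Fasn-high and 0.353 CPM in Fasn-low libraries, and a single library, coarct above 23, reached 43.9 CPM.

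Among regulators of this route, 2 of 9 had a rho of at least 0.7 and none had one of at most -0.7. These were Thrsp, a lipogenic activator known as Spot 14, with medians of 6988 CPM in Fasn-high and 3484 CPM in Fasn-low libraries (rho 0.87), and its relative Mid1ip1, with 58.7 CPM and 42.4 CPM (rho 0.72). Srebf1, which encodes SREBP-1, had nearly the same level in both states, with 682, 1056 and 1329 CPM as the lowest, median and highest in Fasn-high libraries and 431, 1055 and 1444 CPM in Fasn-low libraries (rho -0.18). Nr1h3, the oxysterol receptor LXR alpha, had a rho of 0.60, and Insig1, the sterol-sensing anchor of SREBP, had 0.59. Mlxipl, which encodes ChREBP, has no entry under that symbol in the table and was not analysed here.

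The genes that break down glucose to acetyl-CoA went with Fasn almost as closely as the lipogenic enzymes did. Of 25 genes of glycolysis and pyruvate use tested, 15 had a rho of at least 0.7 and none had one of at most -0.7, with a median of 0.77 against -0.15 for all genes. Their summed level had a median of 16979 CPM in Fasn-high and 14202 CPM in Fasn-low libraries, with overlapping ranges of 15850 to 21167 CPM and 12816 to 20259 CPM. The list's count was 16 with TMM factors.

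Pkm, the pyruvate kinase of the last step of glycolysis, shared with Gbe1, described below, the highest rho among genes outside the lipogenic lists with a symbol and a mean of at least 10 CPM, at 0.94. It had 997, 1204 and 1638 CPM as the lowest, median and highest value in Fasn-high libraries, against 597, 749 and 1194 CPM in Fasn-low libraries, and 6 of 11 Fasn-high libraries lay above every Fasn-low one. Over the 11 means of title numbers its rho was 0.99. Gapdh, often used as an invariant control gene, had medians of 1221 CPM in Fasn-high and 754 CPM in Fasn-low libraries (rho 0.93, and 0.90 with TMM factors). Pfkl, the liver-type phosphofructokinase, had medians of 242 CPM and 131 CPM in that order (rho 0.90). Hk2, the insulin-responsive hexokinase, had medians of 353 CPM in Fasn-high and 122 CPM in Fasn-low libraries (rho 0.80). Subunits of pyruvate dehydrogenase, which turns pyruvate to acetyl-CoA, were among these genes: rho was 0.86 for Pdha1 and 0.84 each for Pdhb and Dlat. Not every step followed: 3 of the 25 genes had a rho below 0, and the lowest was at -0.65. Among the genes that did not follow, rho was 0.02 for Tpi1, 0.03 for Pfkm and -0.36 for Ldhb.

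Some enzymes of steps that branch from glycolysis were also among the genes with the highest rho. Pc, the pyruvate carboxylase that refills mitochondrial oxaloacetate, had 859, 1114 and 1494 CPM in Fasn-high libraries as lowest, median and highest, against 527, 629 and 1000 CPM in Fasn-low libraries (rho 0.91), with 8 of 11 Fasn-high libraries above all Fasn-low ones. Taldo1, the transaldolase of the pentose phosphate route, had medians of 324 CPM in Fasn-high and 174 CPM in Fasn-low libraries (rho 0.91). Gbe1, the glycogen branching enzyme, had 139, 173 and 226 CPM in Fasn-high and 89.1, 118 and 157 CPM in Fasn-low libraries (rho 0.94), and 9 of 11 Fasn-high libraries lay above all Fasn-low ones. Pygl, a glycogen phosphorylase, had medians of 889 CPM in Fasn-high and 562 CPM in Fasn-low libraries (rho 0.89). Aco1, the cytosolic aconitase that doubles as an iron regulatory protein, had medians of 341 CPM and 210 CPM in that order (rho 0.91).

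**Figure D2:**
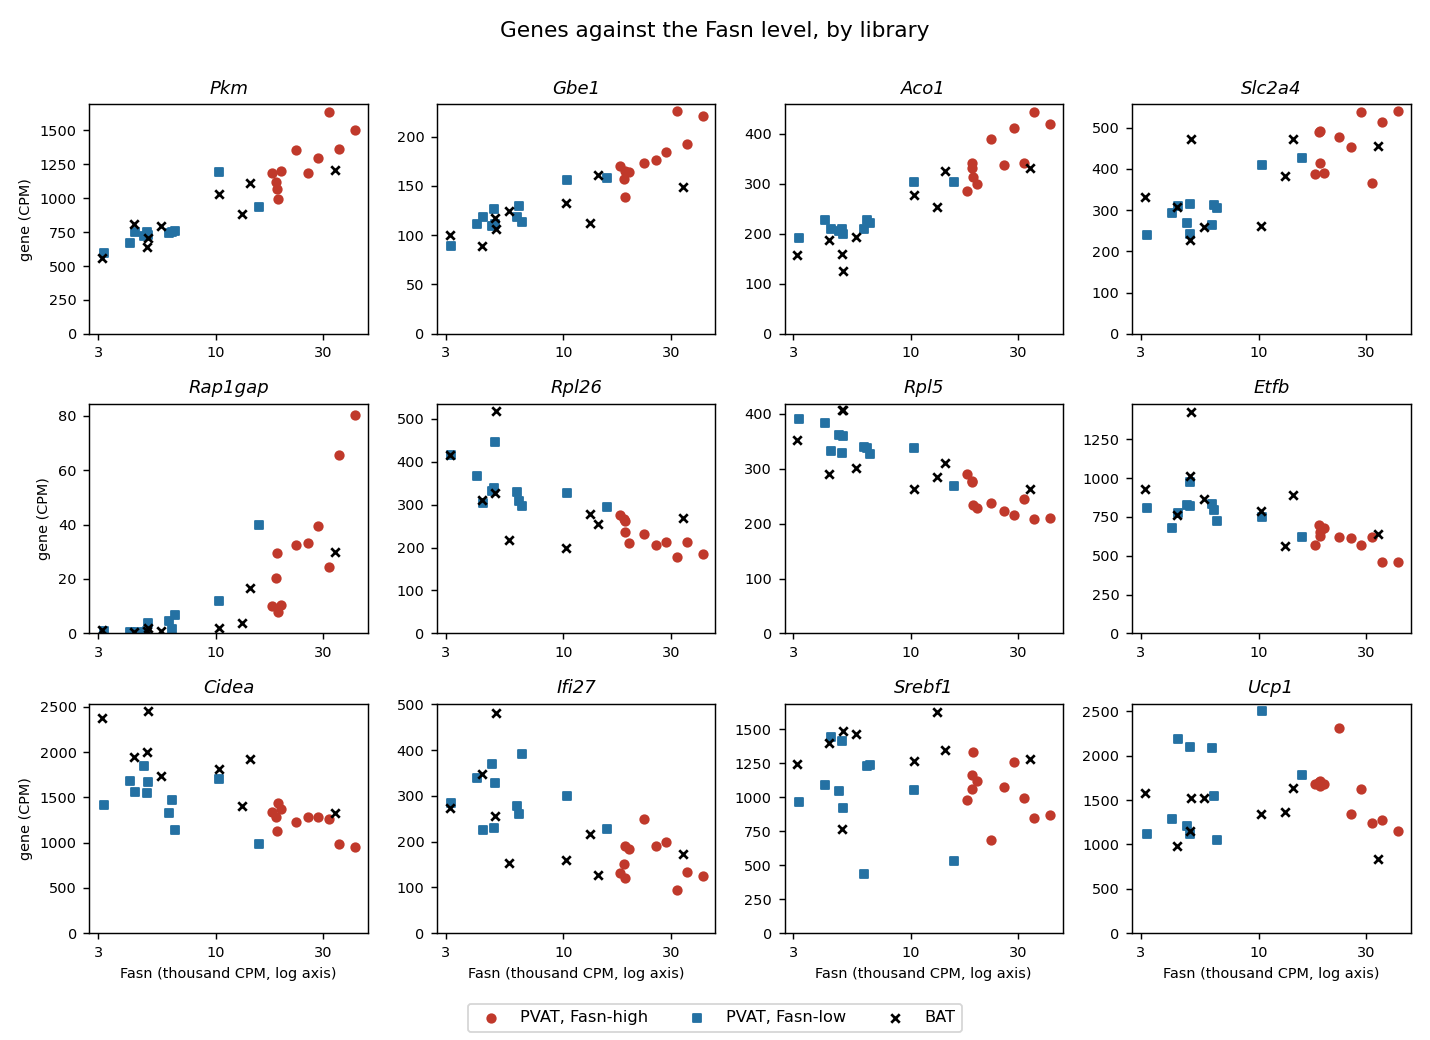
Level of 12 genes in CPM against the Fasn level (log axis), with circles for Fasn-high PVAT, squares for Fasn-low PVAT and crosses for BAT libraries. Pkm, Gbe1, Aco1, Slc2a4 and Rap1gap lie higher at higher Fasn levels in PVAT, Rpl26, Rpl5, Etfb, Cidea and Ifi27 lie lower, and Srebf1 and Ucp1 show no such trend.

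By column totals, glucose uptake was represented by 1 gene. Slc2a4, which encodes the insulin-regulated glucose transporter GLUT4, had 366, 477 and 540 CPM as the lowest, median and highest in Fasn-high libraries, against 239, 306 and 426 CPM in Fasn-low libraries (rho 0.84). It was the only one of 24 genes of insulin signalling and glucose uptake with a rho of at least 0.7, and none had one of at most -0.7. Its trafficking partner Trarg1 came closest, at 0.69. The list's counts at both limits were 2 and 0 with TMM factors. They were 2 and 1 with the length trend of each library as a covariate. The insulin receptor gene Insr was at -0.34, the receptor substrate Irs1 at -0.53, and Grb14, an adaptor that inhibits the insulin receptor, had the lowest rho, -0.66, with medians of 13.6 CPM in Fasn-high and 22.4 CPM in Fasn-low libraries. Pck1, the enzyme that makes phosphoenolpyruvate for glycerol and glucose synthesis, had medians of 2454 CPM in Fasn-high and 3673 CPM in Fasn-low libraries (rho -0.65).

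Genes that use the new fatty acids followed only in part. Of 16 genes of triglyceride assembly, 4 had a rho of at least 0.7: Agpat2, Agpat3, Gpd1 and Fitm2. Agpat3, an acyltransferase of phosphatidic acid synthesis, had medians of 279 CPM in Fasn-high and 124 CPM in Fasn-low libraries, and Gpd1, which makes glycerol 3-phosphate, had 6461 CPM and 4176 CPM. Gpat3, an acyltransferase of the first step, was the only member with a rho of at most -0.7, at -0.71 with medians of 10.4 CPM in Fasn-high and 16.3 CPM in Fasn-low libraries. Slc27a1, a fatty acid transport protein, had medians of 223 CPM and 81.0 CPM in that order (rho 0.85), while Lpl, the lipoprotein lipase, had 2411 CPM and 2629 CPM (rho -0.24, and 0.05 with TMM factors). In cholesterol synthesis, 4 of 23 genes had a rho of at least 0.7 (Sc5d, Nsdhl, Acat2 and Lss) and none had one of at most -0.7, with a median of 0.47, and the count was 8 with TMM factors.

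Fatty acid oxidation was divided within itself by column totals. Of 26 genes, 4 had a rho of at least 0.7 and 2 had one of at most -0.7, while these counts were 6 and 0 with TMM factors. By column totals the positive ones were Acot2, Cpt2, Slc25a20 and Hadh, which act in acyl-CoA and carnitine handling and beta-oxidation. The negative ones were the 2 subunits of the electron transfer flavoprotein, which passes electrons from acyl-CoA dehydrogenases to the respiratory chain. Etfb had 458, 618 and 699 CPM as the lowest, median and highest in Fasn-high libraries, against 620, 793 and 972 CPM in Fasn-low libraries (rho -0.81), and Etfa had medians of 958 CPM and 1085 CPM in that order (rho -0.86). With TMM factors rho was -0.59 for Etfb and -0.57 for Etfa, so neither passed the limit on that scale. The muscle-type carnitine acyltransferase Cpt1b, known for setting the rate in brown fat, had medians of 926 CPM in Fasn-high and 794 CPM in Fasn-low libraries (rho 0.27).

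Further genes at the top of the ranking have roles outside these routes. Rap1gap, which switches off the small GTPase Rap1, covered a wide range: 7.72, 29.6 and 80.3 CPM in Fasn-high libraries and 0.548, 1.59 and 39.9 CPM in Fasn-low libraries as lowest, median and highest (rho 0.90). Its groups overlapped, and 2 Fasn-high libraries lay above all Fasn-low ones. Fam151a had medians of 104 CPM in Fasn-high and 43.7 CPM in Fasn-low libraries (rho 0.92). Sept9, a cytoskeletal septin, had 126 CPM and 41.5 CPM (rho 0.91), and Tmem110, an endoplasmic reticulum protein of calcium entry sites, had 87.3 CPM and 20.8 CPM (rho 0.89). Adora1, the antilipolytic adenosine receptor, had medians of 99.2 CPM in Fasn-high and 47.1 CPM in Fasn-low libraries, with 9 of 11 Fasn-high libraries above all Fasn-low ones, although its rho over all libraries was 0.63.

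Ribosomal protein genes stood at the other end of the ranking. Of 82 entries with a ribosomal protein symbol, 51 had a rho of at most -0.7, against 2.78% of all genes, none had one of at least 0.7, and their median was -0.80. The number was 39 with TMM factors and 46 without the 5 libraries rich in neuron transcripts. Ribosomal protein genes are short, and the 2007 other genes under 1000 bp had a median rho of -0.20, with 93 at most -0.7; with the length trend of each library as a covariate 52 of the 82 entries were at most -0.7. Many of these genes have near-identical copies elsewhere in the genome, so how reads were split between copies is uncertain for single genes. On the fixed list of 31 such entries, the summed level had 4381, 5097 and 6366 CPM as lowest, median and highest in Fasn-high libraries, against 5378, 6819 and 7929 CPM in Fasn-low libraries, and 7 of 11 Fasn-high libraries lay below all Fasn-low ones.

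Rpl26, a protein of the large ribosomal subunit, had 179, 213 and 275 CPM as lowest, median and highest in Fasn-high libraries, against 295, 330 and 446 CPM in Fasn-low libraries (rho -0.94), and its groups did not overlap. Rpl5, a partner of the 5S rRNA, had 208, 234 and 290 CPM in Fasn-high and 270, 339 and 390 CPM in Fasn-low libraries (rho -0.94). Rps3a, of the small subunit, had medians of 418 CPM in Fasn-high and 602 CPM in Fasn-low libraries (rho -0.93, and -0.84 with TMM factors). Of the 12 lowest rho values among genes with a symbol and a mean of at least 10 CPM, 11 belonged to ribosomal protein symbols. Over all tested genes, 17 (0.117%) had Fasn-high values that all lay below the Fasn-low ones. In the opposite direction 5 entries (0.0344%) had no overlap: Fasn itself, Dag1, Ube3b, Top1mt and LOC103693780.

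The promoters of 2 genes from each end of the ranking are printed because the 2 gene sets move in opposite directions, Acly and Pkm being higher and Rpl5 and Rpl26 lower in Fasn-high libraries. They are the RefSeq windows of build GRCr8 from 250 bases before to 50 bases after the gene start, 5′ to 3′ on the gene's strand; Acly is at chr10:85963582-85963881 on the minus strand, Pkm at chr8:68953385-68953684 on the plus strand, Rpl5 at chr14:1995176-1995475 on the minus strand and Rpl26 at chr10:54109442-54109741 on the plus strand. Capitals mark CCAAT, the box that binds NF-Y, CACGTG, the E-box, and CTCTTTCC, a pyrimidine run of the kind found at starts of ribosomal protein genes, each searched on both strands.
Acly: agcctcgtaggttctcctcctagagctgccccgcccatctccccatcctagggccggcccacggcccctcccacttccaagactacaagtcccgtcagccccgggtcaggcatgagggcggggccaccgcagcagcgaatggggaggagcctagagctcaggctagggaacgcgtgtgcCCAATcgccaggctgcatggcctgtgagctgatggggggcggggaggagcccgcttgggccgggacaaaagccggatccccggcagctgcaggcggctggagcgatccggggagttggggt
Pkm: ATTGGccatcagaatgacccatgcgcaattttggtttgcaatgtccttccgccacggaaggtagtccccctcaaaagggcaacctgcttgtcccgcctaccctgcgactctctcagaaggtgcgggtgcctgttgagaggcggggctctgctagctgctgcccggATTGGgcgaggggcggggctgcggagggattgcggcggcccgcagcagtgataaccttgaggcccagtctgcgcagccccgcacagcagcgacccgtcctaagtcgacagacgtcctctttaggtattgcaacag
Rpl5: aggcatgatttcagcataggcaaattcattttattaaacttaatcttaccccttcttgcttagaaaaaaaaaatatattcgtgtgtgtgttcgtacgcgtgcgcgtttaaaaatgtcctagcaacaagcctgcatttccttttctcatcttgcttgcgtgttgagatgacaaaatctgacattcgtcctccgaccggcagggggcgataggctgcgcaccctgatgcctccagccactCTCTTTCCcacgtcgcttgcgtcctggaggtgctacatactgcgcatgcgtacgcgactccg
Rpl26: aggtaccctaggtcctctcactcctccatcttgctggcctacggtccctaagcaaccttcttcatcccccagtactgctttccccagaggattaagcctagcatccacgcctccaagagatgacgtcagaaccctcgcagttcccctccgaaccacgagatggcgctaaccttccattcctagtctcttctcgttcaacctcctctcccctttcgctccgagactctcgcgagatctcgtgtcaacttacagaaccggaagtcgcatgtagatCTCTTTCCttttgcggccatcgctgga

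Acly and Pkm hold CCAAT, in Pkm on the other strand, and Rpl5 and Rpl26 hold CTCTTTCC close to the start. These genes were picked by hand and not by a rule, so their motifs do not speak for their sets. Over all 33469 promoter windows, 37.5% hold CCAAT, 6.42% CACGTG and 3.01% CTCTTTCC. Among the 214 windows matched to the 265 genes with a rho of at least 0.7, the shares were 36.9%, 7.48% and 3.74%, and among the 298 windows matched to genes with a rho of at most -0.7 they were 35.2%, 6.38% and 4.36%. By these letters, neither gene set stood far from all promoters. CCAAT was in 22 of 31 windows of lipogenic enzymes and regulators, and CTCTTTCC in 8 of 58 windows of ribosomal protein genes. Fasn was matched to no window.

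Macrophage transcripts were lower where Fasn was higher. All 17 macrophage genes tested had a rho below 0, as did 64.7% of all genes, and 6 had one of at most -0.7, with a median of -0.60. Their summed level had 240, 411 and 515 CPM as lowest, median and highest in Fasn-high libraries, against 361, 527 and 845 CPM in Fasn-low libraries. The groups overlapped, with 4 of 11 Fasn-high libraries below every Fasn-low one. In bulk samples, fewer cells of a type and less RNA per cell cannot be told apart. Folr2, the folate receptor of resident macrophages, had medians of 7.71 CPM in Fasn-high and 12.6 CPM in Fasn-low libraries (rho -0.78), and Tyrobp, a myeloid signalling adaptor, had 7.53 CPM and 11.4 CPM (rho -0.76). Aif1, which encodes the myeloid marker IBA1, had 5.80 CPM and 9.15 CPM (rho -0.79). With TMM factors 4 of the 17 genes were at most -0.7, and without the 5 libraries rich in neuron transcripts 1 was.

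In connective tissue and interferon-stimulated lists 1 gene each had a rho of at most -0.7, as did 2.78% of all genes, while their medians were below the -0.15 of all genes. Of 15 fibroblast genes, 1 had a rho of at most -0.7 (Cd55, -0.79) and the median was -0.53. Of 29 matrix genes, 1 passed, the small proteoglycan gene Dcn, with medians of 321 CPM in Fasn-high and 483 CPM in Fasn-low libraries (rho -0.77), while Col1a1, the main collagen chain, had 569 CPM and 680 CPM (rho -0.38). Among 18 interferon-stimulated genes, 1 passed, Ifi27, with 94.1, 151 and 249 CPM as lowest, median and highest in Fasn-high libraries, against 226, 284 and 391 CPM in Fasn-low libraries (rho -0.73, and -0.70 with TMM factors, just short of the limit). In 10 of 11 Fasn-high libraries Ifi27 lay below every Fasn-low one. The summed list, of which Ifi27 is a large part, had medians of 522 CPM in Fasn-high and 704 CPM in Fasn-low libraries, while Isg15 was at 7.58 CPM and 8.75 CPM. Mesothelial markers had a median rho of -0.44 and erythroid ones of -0.39, with none of either list at most -0.7.

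**Figure D3:**
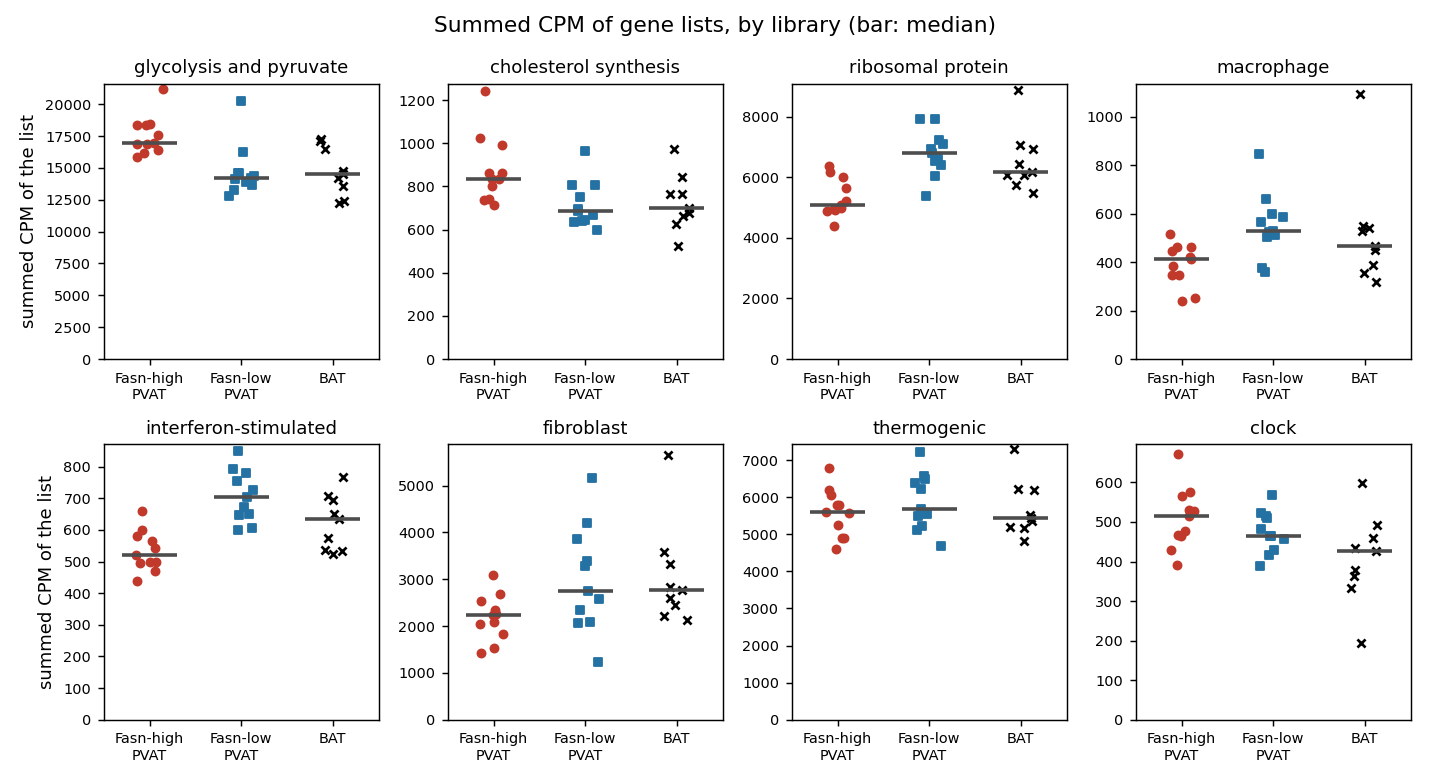
Summed CPM of 8 gene lists in each Fasn-high PVAT, Fasn-low PVAT and BAT library, with a bar at the median. The medians for Fasn-high and Fasn-low PVAT were 16979 and 14202 CPM for glycolysis and pyruvate genes, 5097 and 6819 CPM for ribosomal protein genes and 411 and 527 CPM for macrophage genes, while thermogenic genes lay at 5600 and 5690 CPM.

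Brown-fat and clock genes did not go with the state as groups. Ucp1 had 1153, 1659 and 2311 CPM as lowest, median and highest in Fasn-high libraries, and 1051, 1548 and 2504 CPM in Fasn-low libraries (rho -0.01, and 0.10 with TMM factors). Of 17 thermogenic genes, 1 had a rho of at least 0.7 (Letmd1, a mitochondrial protein of brown fat, 0.75) and 1 had one of at most -0.7 (Cidea, a lipid droplet protein of brown adipocytes, -0.72), and Cidea was at -0.54 with TMM factors. None of 18 clock genes reached the limit in either direction, with a median of 0.04, although Bhlhe40, a repressor of the clock, was at 0.60 and Nr1d1, which encodes the repressor REV-ERB alpha, was at 0.51. Nr1d1 had medians of 26.7 CPM in Fasn-high and 16.98 CPM in Fasn-low libraries, and 8 of 11 Fasn-high libraries lay above every Fasn-low one. Arntl, the positive limb of the clock, had 24.1 CPM and 26.5 CPM (rho -0.46). None of 24 immediate early genes, 19 genes of fasting and glucocorticoid response, 39 nuclear genes of the respiratory chain or 13 of the citric acid cycle passed the limit.

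Secreted adipocyte products differed among themselves. Lep, which encodes leptin, had medians of 148 CPM in Fasn-high and 239 CPM in Fasn-low libraries (rho -0.50), and Adipoq, which encodes adiponectin, had 1404 CPM and 1692 CPM (rho -0.47), with 6 of 11 Fasn-high libraries below every Fasn-low one. Nampt, a NAD-producing enzyme that is also secreted, was the only one of 21 genes of this list with a rho of at least 0.7, at 0.75. Agt, which encodes angiotensinogen, had 626 CPM in Fasn-high and 409 CPM in Fasn-low libraries as medians (rho 0.64).

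**Figure D4:**
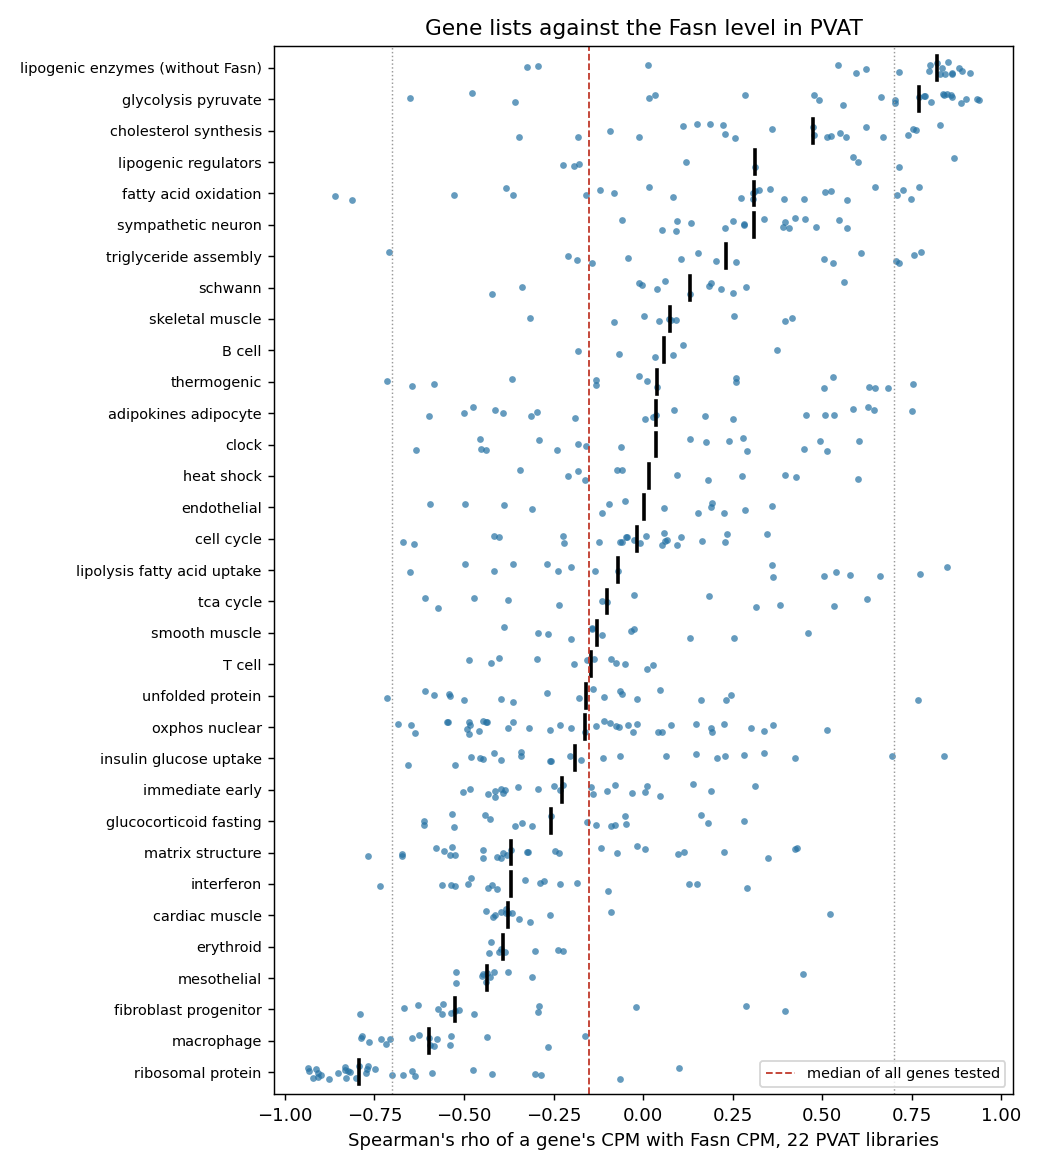
Spearman's rho of each tested member of 33 gene lists with Fasn over the 22 PVAT libraries (points), with the list's median (black bar), the median of all genes tested (dashed line, -0.15) and the limits of 0.7 and -0.7 (dotted). Lipogenic enzymes and glycolysis genes lie furthest to the right, at medians of 0.82 and 0.77, and ribosomal protein and macrophage genes furthest to the left, at -0.79 and -0.60.

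The BAT libraries, which the division did not use, allowed tests of the same pattern. They carry title numbers that PVAT libraries also carry, so they may not be independent of the libraries that ranked the genes. Fasn in BAT ran from 3122 to 33941 CPM. Over the 9 title numbers with BAT, BAT Fasn went with the mean PVAT Fasn of the same number on a log2 scale (Pearson's r 0.78, p = 0.0144; Spearman's rho 0.78, p = 0.0172, two-sided exact permutation tests). Relations of this kind numbered 3, and after Benjamini-Hochberg adjustment the exact permutation p was 0.0204 for each r and 0.0369 for each rho. For the other 2, r was 0.76 with PVAT above (rho 0.73) and 0.76 with PVAT below (rho 0.72). Without the 2 numbers farthest from the median PVAT level, sham 26 and coarct 30, r with the mean was 0.55, so the relation rests in part on those numbers. Leaving out any 1 of coarct 19, sham 20, sham 22, sham 26 or coarct 30 took the adjusted exact permutation p of all 3 rho values above 0.05, as did sham 24 for PVAT below, with values of 0.0576 to 0.132. With PVAT above, r was 0.48 without coarct 30 and sham 26. With PVAT below, where coarct 19 and 27 were the farthest, r was 0.78 without them. The clearest departure was coarct 29, with 19561 and 25771 CPM in PVAT above and below and 5004 CPM in its BAT.

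Genes were then tested in BAT against the log2 level of BAT's own Fasn, with surgery as a covariate, by edgeR's quasi-likelihood test. Benjamini-Hochberg adjustment ran over 13644 genes, Fasn among them. Fasn was set against its own level, so its result was fixed in advance. Its place in the adjustment can lower the adjusted p of the genes ranked after it. Besides Fasn 1 gene was called (0.00733% of the other 13643), Stk32c, a serine/threonine kinase, named after its values were seen. Its slope was 1.57 log2 per doubling of Fasn (SE 0.19, adjusted p = 0.0287 in edgeR). Whether Stk32c would be called with Fasn left out of the adjustment was not tested. It was a low gene, with a median of 0.468 CPM in BAT, and had medians of 2.35 CPM in Fasn-high and 0.673 CPM in Fasn-low PVAT. Its call was lost when any of the 9 libraries was left out. At an unadjusted p under 0.05, 1.93% of genes had a positive and 1.47% a negative slope, and DESeq2 called 27 genes besides Fasn.

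Slopes in BAT had the sign of the PVAT ranking for most genes named from its ends, without passing the adjusted test. Of the 12 named genes with the highest rho in PVAT, 11 had a positive slope in BAT and 7 had an unadjusted p under 0.05; 46.1% of all genes had a slope above 0. The steepest was Rap1gap, at 1.37 log2 per doubling of Fasn (SE 0.29, adjusted p = 0.577 in edgeR), with 0.416 to 29.9 CPM over the BAT libraries. Sept9 had a slope of 0.59 (SE 0.12) and Tmem110 one of 0.61 (SE 0.14). The exception was Gapdh, at -0.13 (SE 0.14), so the housekeeping gene that followed Fasn in PVAT had no slope beyond its error in BAT. Gapdh was highest in the BAT of coarct 29, at 1498 CPM with Fasn at 5004 CPM, and at 750 to 1152 CPM in the other BAT libraries. Its slope without coarct 29 is not given here. None of the 12 named genes with the lowest rho had a positive slope, and 7 had an unadjusted p under 0.05; Rpl26 had -0.39 (SE 0.15). The adjusted p of these 24 genes was at least 0.556 in edgeR.

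By lists, 17 of 18 lipogenic enzymes besides Fasn had a positive slope in BAT, 8 of them at an unadjusted p under 0.05. Of 25 glycolysis and pyruvate genes 15 had a positive slope, 3 of them at an unadjusted p under 0.05, so the lists that were close in PVAT were further apart in BAT, though the difference itself was not tested. Of the 82 ribosomal protein entries 4 had a positive slope and 14 a negative one at an unadjusted p under 0.05. This depends on scaling, since the test uses TMM factors: by CPM of the column total the median rho of these entries with BAT Fasn was -0.04, against 0.28 for all genes, and the transcripts of the mitochondrial genome had a rank correlation of -0.87 with BAT Fasn as a sum. Of 1800 genes under 1000 bp outside the ribosomal proteins, 581 had a positive slope in BAT. A negative slope at an unadjusted p under 0.05 in edgeR was found for 49 of them. The trend of levels with gene length was -0.25 in the BAT of coarct 29, against -0.03 to 0.11 in the other BAT libraries. Its part in the BAT slopes was not tested.

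Skeletal muscle transcripts differed between BAT libraries, from 24.3 to 6939 CPM as a sum, and all 10 of their genes had a negative slope on BAT Fasn with TMM factors, although the median rho by CPM was 0.20. The part of this in the BAT slopes was not tested.

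Immune and connective tissue genes did not have the PVAT direction in BAT. Of 17 macrophage genes 11 had a positive slope in BAT and none a negative one at an unadjusted p under 0.05, and of 29 matrix genes 28 had a positive slope. Interferon-stimulated genes kept theirs, with 1 of 18 slopes positive and 3 negative ones at an unadjusted p under 0.05, among them Ifi27 at -0.53 (SE 0.18, adjusted p = 0.992 in edgeR). Cidea had a slope of -0.37 (SE 0.13) and a rank correlation with BAT Fasn of -0.77. Slc2a4 had a slope of -0.02 (SE 0.13) in BAT, against its rho of 0.84 in PVAT. The BAT of coarct 29 had 471 CPM of Slc2a4 with Fasn at 5004 CPM. Apart from it, Slc2a4 was at 228 to 331 CPM in BAT libraries with Fasn at 3122 to 10303 CPM. It was at 382 to 471 CPM in those with Fasn at 13088 to 33941 CPM. The slope without coarct 29 is not given here.

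**Figure D5:**
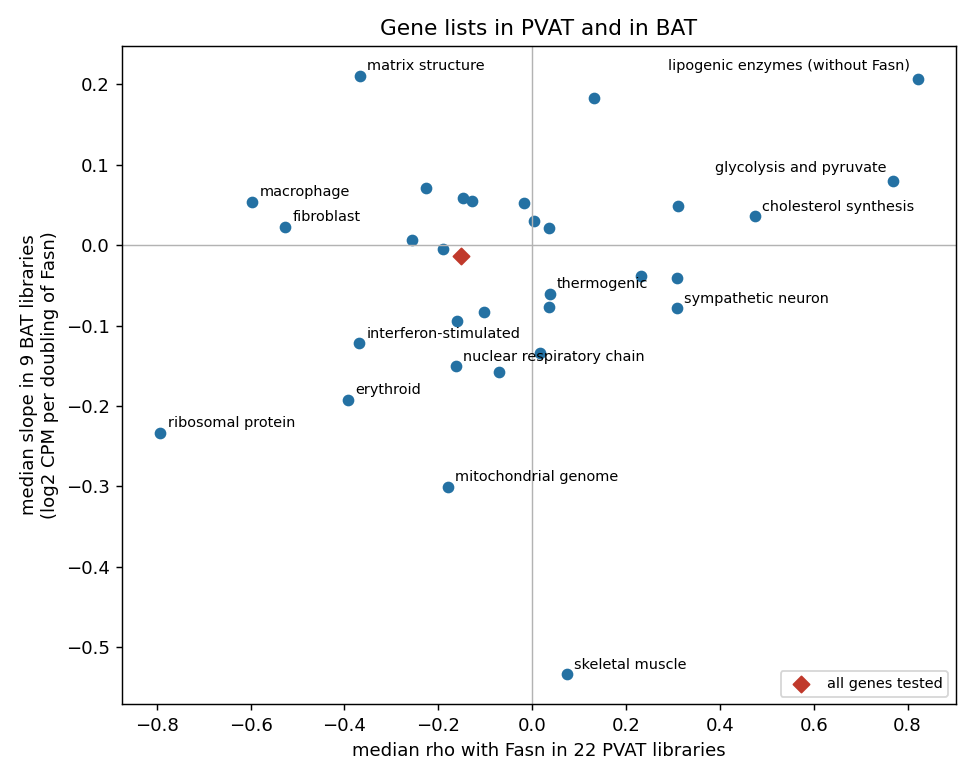
Median slope of each gene list on Fasn in 9 BAT libraries (log2 CPM per doubling of Fasn, TMM-scaled) against its median rho with Fasn in 22 PVAT libraries; each point is a list with at least 5 genes tested in BAT, and the diamond is all genes tested. Lipogenic enzymes lie high on both axes (0.82 and 0.21) and ribosomal protein genes low on both (-0.79 and -0.23), while matrix genes lie low in PVAT (-0.37) and high in BAT (0.21). The BAT slopes were not adjusted for gene length.

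BAT genes were also tested against the mean PVAT Fasn of the same title number. No gene was called by edgeR at an adjusted p under 0.05, with 2.18% of genes positive and 1.03% negative at an unadjusted p under 0.05, and DESeq2 called 21 genes. All 12 named genes with the highest PVAT rho had a positive slope, against 51.6% of all genes. Of the 12 with the lowest, 6 had a positive slope, and 56 of the 82 ribosomal protein entries did.

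The labelled contrasts of PVAT were tested in the same genes. Between coarct and sham PVAT no gene was called by edgeR's quasi-likelihood test, with 3.34% of genes higher and 3.13% lower at an unadjusted p under 0.05, and DESeq2 called 21. This contrast took the 22 libraries as independent, although those with the same number mostly share the Fasn state. Its unadjusted shares and its DESeq2 calls may therefore be too high, and no surgery test with 1 value per number was run. Between PVAT above and below the ligature 163 genes were called (1.12%), and none of them was a lipogenic enzyme, a glycolysis or pyruvate gene, a ribosomal protein gene or a macrophage gene of the lists. They held 13 of 18 sympathetic neuron genes and 10 of 13 cardiac muscle genes. With a block for the title number 138 genes were called (0.948%), and these did include 5 of 17 macrophage genes and 1 of 25 glycolysis and pyruvate genes. Among them C1qa, a complement chain made by macrophages, was higher above than below by 0.51 log2 (SE 0.10, adjusted p = 0.0352 in edgeR). Without the block, with Fasn as a covariate the number of site calls was 40.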

How the data were processed

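Total RNA of fat samples with an RNA integrity number of at least 7.5, per the labels, was sequenced in 31 libraries. Whole-number counts of reads for 32883 Ensembl gene entries were deposited by the authors, beside an FPKM table, which equals count over 1 length per gene and over the column total (largest relative deviation 2.87e-14). The submitters' processing notes name STAR 2.5, DESeq2 1.24.0 and HTSeq 0.6.1. Genome build, annotation release and strand setting are not given in sources used here. Gene names turned into dates in 25 entries of counts were replaced by those of the FPKM file.

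CPM is count over column total. PVAT genes passing filterByExpr were ranked by Spearman's rho with Fasn CPM; differences are means of log2(CPM + 1). BAT slopes, surgery and site were tested with edgeR 4.0.16 under R 4.3.3, by its quasi-likelihood F test with TMM factors and a Benjamini-Hochberg adjusted threshold of 0.05, with a site or surgery contrast over the 4 PVAT groups; an SE is the absolute log2 value over the square root of F. Alternatives used DESeq2 1.42.0, limma 3.58.1 on log2(FPKM + 1), other scalings, no filter, a block for the title number, other library sets and limits. The tests were run on simulated counts, drawn independently for each library with a fixed spread and no trend with gene length. That check does not cover links between same-number libraries or a library that stands apart.

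The members and the 33 gene lists were chosen with earlier results of these data known. Genes were named by a rule: the 12 highest and 12 lowest rho values among genes with a symbol and a mean of at least 10 CPM outside the lipogenic lists, up to 3 members per list by size of rho, a fixed set, and the steepest calls in BAT. Other list members named for a role, and genes said to be so, were chosen after their values were seen. Some genes that the rule or the lists hold are not reported here.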

Additional observations from a re-analysis of the deposited data

Results flagged for a closer look

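In sham below, the lowest library stood apart in the summed level of the lipogenic enzymes other than Fasn. Sham below 26 had 6759 CPM, and the other 4 libraries had 18382 to 22342 CPM, a gap that exceeded Dixon's critical value. It was 1 flag in 12 groups of libraries looked at, over 2 measures, and chance flags about 1 in 20. The same number had the lowest Fasn level in PVAT above and in BAT.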

How the results depend on the processing

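No named gene with a rho past the limit changed sign in these settings, but the rho of 26 named genes missed the limit under the replicate block and that of 29 kept it; 15 missed it in the libraries under 500 CPM of 12S rRNA, 9 in those from below, and at most 5 in each other setting. Counts of genes at a rho of at least 0.7 and at most -0.7 (265 and 404) moved as follows. TMM factors gave 517 and 243, and DESeq2 size factors 512 and 243. Deviations from the mean of each title number, the replicate block, gave 155 and 443. In that setting the deviations of a number's libraries mirror each other, and Fasn was higher below in 11 of 11 numbers. A rho past the limit there largely reflects a difference between sites, so it does not show whether a gene keeps following Fasn. Ranking by the other lipogenic enzymes gave 296 and 242. Libraries from above alone gave 276 and 1246, and those from below 407 and 685. A limit of 0.6 gave 504 and 1143, and 0.8 gave 98 and 117. Settings chosen after seeing the data gave 449 and 1128 (11 means of title numbers), 337 and 731 (length trend as a covariate), 416 and 915 (12 libraries over 500 CPM of 12S rRNA), 307 and 326 (10 libraries under it), 301 and 444 (without 5 libraries rich in neuron transcripts) and 326 and 296 (column total less Fasn). Fewer points reach a given rho more easily. Leaving out each library gave 217 to 316 and 331 to 514. Same-number pairs of PVAT libraries correlated at -0.11 to 0.50 in their deviations from group means, over 0.1 in 8 of 11. Of the 11 above libraries, 7 correlated best with their own number. The main site and surgery tests did not pair libraries by number, while the replicate block, the 11 means and the relation of BAT with PVAT used it.

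Calls in BAT by its own Fasn (1) were 27 with the DESeq2 Wald test, 0 with limma and 2 without a filter, and 0 to 1 with a library left out. By PVAT Fasn (0) they were 21 with DESeq2, 1 without a filter, 1 without the surgery term and 0 to 1 with a library left out. Surgery (0) gave 21 with DESeq2, 3 with Fasn as a covariate and 0 to 1 with a library left out. Site (163) gave 297 with DESeq2, 40 with Fasn as a covariate, 138 with the replicate block, and 37 (without sham below 28) to 221 with a library left out; 13 of the 22 libraries moved it past 1.5 times, among them coarct below 23, 29 and 30. The rho of BAT with PVAT Fasn was 0.69 to 0.90 for the mean, 0.62 to 0.90 for above and 0.60 to 0.81 for below with 1 number left out. The causes of these moves were not tested. No limma or DESeq2 fit exists for the rho counts, which come from no test.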

Other observations

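Genes of glycogen and serine metabolism, chosen after their values were seen, were also read against the state. Of 24 genes of glycogen synthesis, breakdown and their regulation tested, 5 had a rho with Fasn of at least 0.7, against 1.82% of all genes, and none had one of at most -0.7. These were Gbe1 and Pygl, described above, the glycogen synthases Gys1 and Gys2, and Ppp1r3b, a subunit that brings protein phosphatase 1 to glycogen. Ppp1r3b had medians of 301 CPM in Fasn-high and 155 CPM in Fasn-low libraries, and Gys2, the liver-type synthase, had 98.2 CPM and 57.8 CPM. Gyg1, which primes glycogen, was at -0.54. In BAT 12 of 24 had a positive slope on Fasn, 2 of them at an unadjusted p under 0.05 in edgeR.

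Of 5 genes of serine and glycine synthesis, 2 had a rho of at least 0.7. Psat1, the aminotransferase of serine synthesis, had 111, 126 and 163 CPM as lowest, median and highest in Fasn-high libraries, against 70.9, 87.4 and 112 CPM in Fasn-low libraries, with 10 of 11 Fasn-high libraries above all Fasn-low ones. Phgdh, the first enzyme of that route, had medians of 193 CPM and 144 CPM in the same order (rho 0.87), and in BAT its slope was -0.12 (unadjusted p = 0.577 in edgeR). Acsf2, an acyl-CoA synthetase, had medians of 466.4 CPM in Fasn-high and 131 CPM in Fasn-low PVAT and a BAT slope of 0.81 (SE 0.17, adjusted p = 0.611 in edgeR); on the PVAT Fasn of the same number its BAT slope was 0.89 (adjusted p = 0.0732).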
